A study of Homo sapiens with 3 samples.

Results

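The genes described here are 31 targets that androgen induces in prostate cells, named as a list of symbols, of which 28 were among the 22613 genes listed in every library. HPGD, MAF and ORM1 were not analysed here. The cells were LNCaP-abl, a subline of LNCaP prostate cancer cells that grows without androgen, kept in phenol-red-free medium with charcoal-stripped serum, which is low in steroids. RNA was sequenced 72 h after lipid transfection with a pool of siRNAs against the transcription factor E2F1 (siE2F1, 1 library) or with control siRNA (2 libraries, called control 0 and control 1). All 3 libraries came from the same line and medium and the labels name no added androgen, so the values give the level of these genes in stripped serum, not their induction. Whether the controls were separate cultures is not stated. In bulk RNA, fewer cells that express a gene and less RNA of it per cell cannot be told apart.

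Androgen changes transcription in prostate cells through response elements in DNA built from a pair of inverted hexamers. In the prostate the genes it induces include secreted proteases and phosphatases of seminal fluid, membrane proteins, lipid enzymes, and cofactors of steroid receptors such as FKBP5. Several of these targets, among them FKBP5, SGK1, TSC22D3 and ZBTB16, are also induced by the glucocorticoid receptor, which reads similar elements.

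Promoters of 5 of the genes are shown, picked by level, by difference or by the letters found. Whether these sequences bear on the values was not tested. KLK3 and KLK2 are neighbouring kallikrein genes that were nearly silent, ACPP had the largest difference after E2F1 silencing, PLA2G2A was higher and held an androgen response hexamer, and CAMKK2 was higher and held letters of an E2F site. The sequences are the 250 bases before a start of each gene on the gene's own strand, 5′ to 3′, from RefSeq (GRCh38.p14). For a gene with several starts, the window with the most androgen response hexamers was shown. For PLA2G2A this was window 3, and its other windows lacked the hexamer. In KLK3 and KLK2 the capitals mark a 15-base stretch that begins at the hexamer of KLK3, and in PLA2G2A and CAMKK2 they mark the letters found.
KLK3, chr19:50854665-50854914, plus strand: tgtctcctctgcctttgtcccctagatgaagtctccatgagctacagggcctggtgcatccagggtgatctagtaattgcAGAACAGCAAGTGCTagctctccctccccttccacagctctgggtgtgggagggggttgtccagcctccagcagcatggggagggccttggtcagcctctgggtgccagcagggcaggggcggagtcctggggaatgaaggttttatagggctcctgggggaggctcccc
KLK2, chr19:50873189-50873438, plus strand: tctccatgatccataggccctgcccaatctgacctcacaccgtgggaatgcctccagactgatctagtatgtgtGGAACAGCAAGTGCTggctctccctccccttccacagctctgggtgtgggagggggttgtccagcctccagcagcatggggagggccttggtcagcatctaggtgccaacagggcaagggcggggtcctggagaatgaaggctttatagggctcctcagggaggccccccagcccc
ACPP (ACP3 in RefSeq), chr3:132317157-132317406, plus strand: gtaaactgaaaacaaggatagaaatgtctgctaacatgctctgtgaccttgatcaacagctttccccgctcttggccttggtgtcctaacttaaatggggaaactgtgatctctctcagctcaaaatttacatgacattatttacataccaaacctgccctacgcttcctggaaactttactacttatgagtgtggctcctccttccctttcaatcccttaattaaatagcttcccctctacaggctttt
PLA2G2A, chr1:19979619-19979868, minus strand: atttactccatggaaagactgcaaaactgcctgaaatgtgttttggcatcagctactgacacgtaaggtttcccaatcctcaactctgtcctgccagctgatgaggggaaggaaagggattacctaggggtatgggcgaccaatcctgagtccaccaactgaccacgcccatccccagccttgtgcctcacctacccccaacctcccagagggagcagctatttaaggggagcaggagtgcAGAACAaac
CAMKK2, chr12:121296710-121296959, minus strand: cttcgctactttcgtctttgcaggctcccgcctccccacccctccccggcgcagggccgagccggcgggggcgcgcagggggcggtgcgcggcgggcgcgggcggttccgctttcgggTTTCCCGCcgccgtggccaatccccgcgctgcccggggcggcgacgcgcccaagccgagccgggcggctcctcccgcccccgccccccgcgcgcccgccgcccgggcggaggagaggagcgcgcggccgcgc

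RefSeq promoters were at hand for 22 of the 28 genes, in 41 windows since some genes have several starts. TMPRSS2, NDRG1, ELL2, ZBTB16, FOLH1 and TARP had none. The letters TGTTCT or, on the other strand, AGAACA were in 4 of the 41 windows (9.76%), of KLK3, PLA2G2A, PMEPA1 and TRPM8, against 12.4% of all 35116 windows. The E2F letters TTTCCCGC and TTTGGCGC, with their reverse complements GCGGGAAA and GCGCCAAA, were in 1 of the 41 windows (2.44%), that of CAMKK2, against 1.93% of all windows. The 2 sets of letters do not overlap. In KLK3 the hexamer started 170 bases before the gene's start, and the closest stretch in KLK2 started 176 bases before it. Counting from 1 at the 5′ end of the marked stretch, KLK2 differed from KLK3 by the substitution A1G alone, so KLK2 has no exact hexamer there. The 2 windows were 79.2% identical over 259 aligned columns, gaps included. A match of letters is a description of the window, not a site shown to be bound.

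Values are FPKM, fragments scaled to transcript length and to the total of the library, so levels can be compared between genes. Their sorted values were nearly equal between the libraries, as quantile normalization gives, so they are not scaled by library total alone. Read counts were not given and the depth of each library is unknown. Fold changes are differences in log2(FPKM + 1) between siE2F1 and the mean of the controls, a scale that understates the change of low genes, and genes were tested where the mean over the 3 libraries was at least 1 FPKM. E2F1 itself stood at 1.68 FPKM in siE2F1, against 10.6 FPKM in each control (log2 fold change -2.12, standard error 0.06, limma adjusted p = 0.0311). E2F1 was lower under 2 other settings as well but no longer passed, namely when 0.1 replaced 1 as the pseudocount (adjusted p = 0.0601) and when low genes were kept in the fit (adjusted p = 0.159). The spread in the test comes from the 2 controls alone, which may be technical, and the siE2F1 value, with no replicate, is taken to have the same spread. All 6 luminal markers found were expressed, between 44.7 and 171 FPKM in siE2F1 and between 42.8 and 146 FPKM in the controls. In siE2F1, KRT8, KRT18 and CDH1 were above both controls, HOXB13 was below both and FOXA1 and EPCAM lay between them. Of the 2 basal markers found, KRT14 was listed at 0 in all 3 libraries and ITGB4 was at 3.25 FPKM in siE2F1 and 2.81 and 2.61 FPKM in the controls. In the other marker lists, the stromal genes found were at most 1.78 FPKM, and the neuroendocrine genes SYP and CHGB were below 1 FPKM. Exceptions in those lists were the leukocyte gene LYZ, at 3.84 FPKM in siE2F1 and 3.66 and 3.51 FPKM in the controls, and ENO2, at 32.4 FPKM in siE2F1 and 47.4 and 45.5 FPKM in the controls, which is not confined to neuroendocrine cells. The summed level of the marker lists as found was 746 FPKM in siE2F1 and 673 and 641 FPKM in the controls for luminal genes, and 4.26, 4.50 and 4.66 FPKM for leukocyte genes in siE2F1, control 0 and control 1; their part in the results below was not tested.

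Without added steroid, the androgen-induced genes ran from silent to among the most abundant transcripts of the cell. In both controls 21 of the 28 genes reached 1 FPKM (75%), against 61.3% of all listed genes, and 13 reached 10 FPKM (46.4%), against 28.9%. The median gene of the list stood at percentile 66.6 of all listed genes in control 0 and 67.4 in control 1. Its level was 8.35 FPKM in control 0 and 8.70 FPKM in control 1. The median of all genes was 2.90 FPKM in each, equal because the libraries share nearly the same distribution. The members FOLH1, STEAP1, STEAP2 and PLA2G2A together made up 72.5% and 73.2% of the summed FPKM of the 28 genes in control 0 and control 1.

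**Figure D1:**
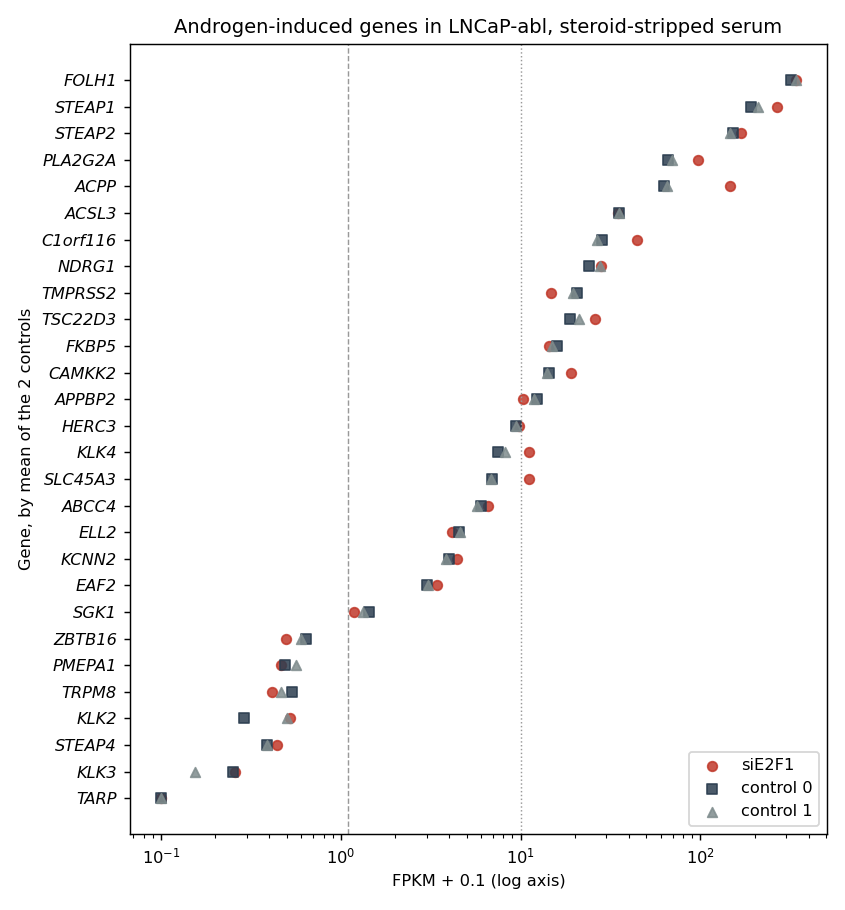
Level of each of the 28 genes as FPKM + 0.1 on a log axis, in siE2F1 (circles), control 0 (squares) and control 1 (triangles), ordered by the control mean; the dashed and dotted lines mark 1 and 10 FPKM. The 7 genes left of the dashed line include KLK2 and KLK3, while FOLH1, STEAP1 and STEAP2 lie above 100 FPKM, and the circle of ACPP stands apart from its controls.

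The silent and nearly silent genes included the best known androgen targets. KLK3, which encodes prostate-specific antigen, was at 0.156 FPKM in siE2F1 and at 0.152 and 0.0531 FPKM in control 0 and control 1. KLK2, a kallikrein close to KLK3 in sequence, was at 0.417 FPKM in siE2F1 and at 0.188 and 0.403 FPKM in the controls. The controls differed from each other by more than siE2F1 differed from the nearer control in both genes, and near-identical stretches of KLK2 and KLK3 can share reads, so neither value is firm. TARP, read from the T cell receptor gamma locus in prostate cells, was listed at 0 in all 3 libraries.

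The other genes under 1 FPKM were likewise low in every library. STEAP4, a metalloreductase, was at 0.34 FPKM in siE2F1 and 0.286 and 0.289 FPKM in the controls. PMEPA1, an inhibitor of TGF-beta signalling, was at 0.362 FPKM in siE2F1 and 0.388 and 0.464 FPKM in the controls. The cold-sensing cation channel TRPM8 was at 0.312 FPKM in siE2F1, against 0.433 and 0.364 FPKM in the controls. ZBTB16, a zinc finger repressor, was at 0.391 FPKM in siE2F1, against 0.543 and 0.502 FPKM in the controls. These 7 genes were not tested, and the 6 that were detected lay between 0.0531 and 0.543 FPKM in the controls.

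The 3 genes above 100 FPKM in both controls encode membrane proteins. FOLH1, the folate hydrolase known as prostate-specific membrane antigen, had the highest level, at 339 FPKM in siE2F1 and 318 and 339 FPKM in the controls. FOLH1 is placed in the list as androgen-induced, although in LNCaP cells androgen is known to lower it, and it has a near-identical genomic copy that can share its reads. Its value in siE2F1 equalled that of control 1 exactly, as libraries scaled to a common distribution can give. STEAP1 and STEAP2, relatives of STEAP4 that lie side by side in the genome, were at 267 and 167 FPKM in siE2F1. In control 0 they were at 191 and 151 FPKM, and in control 1 at 208 and 146 FPKM. The same family thus held 2 genes at about percentile 98 to 99 of all listed genes and 1, STEAP4, near percentile 23.

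After E2F1 silencing the genes that were already expressed were more often above both controls than below, with ACPP, C1orf116 and SLC45A3 the furthest above and TMPRSS2 the furthest below. Of the 21 genes tested, 14 were above both controls in siE2F1 (66.7%), against 43.7% of all 14401 genes tested. Another 6 were below both (28.6%), against 39.7%, and FOLH1 equalled control 1. Over the 27 genes above 0 in any library, with no filter on level, 17 were above both controls and 9 below, where 40.9% and 38.2% of all genes were. The median log2 fold change of the 21 was 0.14, against 0.01 for all genes tested, and the median difference between control 1 and control 0 was -0.006 for the same 21. The members' absolute difference between the controls had a median of 0.07, against 0.08 for all genes tested.

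None of the 21 genes passed limma over all genes tested (lowest adjusted p = 0.103), where 60 genes or 0.417% passed, and 10 of the 21 (47.6%) had an unadjusted p under 0.05, against 28.4% of all genes tested. With small nucleolar, small nuclear and micro RNA genes left out of the fit, 7 of the 21 passed (33.3%), against 10.5% of the 13928 genes then tested. Of these, 6 were higher in siE2F1 (28.6%, against 4.17% of all) and 1 was lower (4.76%, against 6.36%, a share near the background). By size, 7 of the 21 lay at least 0.3 log2 units above both controls (33.3%, against 10.1% of all genes tested) and 1 lay at least 0.3 below both (4.76%, against 11.6%). Adjusted p-values given below are first over all genes tested and then without the small RNA genes.

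**Figure D2:**
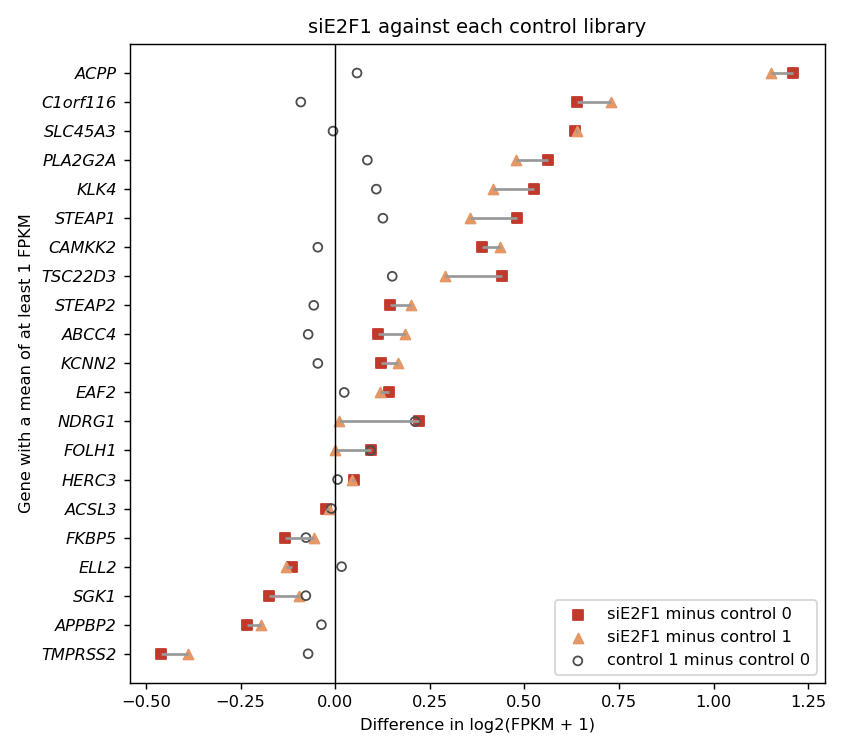
Difference in log2(FPKM + 1) between siE2F1 and control 0 (squares) and between siE2F1 and control 1 (triangles) for the 21 genes tested, with the difference between the controls as open circles. ACPP stands furthest to the right, at 1.21 and 1.15, and TMPRSS2 furthest to the left, at -0.46 and -0.39.

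Among the secreted proteins, ACPP, prostatic acid phosphatase, was at 146 FPKM in siE2F1, against 62.6 and 65.2 FPKM in the controls. Both controls lay close together, and siE2F1 was 2.29 times their mean. The log2 fold change of ACPP was 1.18 (standard error 0.07, limma adjusted p = 0.103 and 0.0221). PLA2G2A, a secreted phospholipase that frees fatty acids from membrane lipids, was at 97.3 FPKM in siE2F1, against 65.5 and 69.6 FPKM in the controls (0.52, standard error 0.08, limma adjusted p = 0.112 and 0.0403). KLK4, the kallikrein that was expressed, was at 11.1 FPKM in siE2F1, against 7.38 and 8.04 FPKM in the controls. Its log2 fold change of 0.47 (standard error 0.08, limma adjusted p = 0.121 and 0.0498) sat at the edge of the threshold without small RNA genes. KLK2 and KLK3, of the same gene cluster, stayed under 1 FPKM in siE2F1 as in the controls.

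Membrane proteins and transporters did not all move alike. SLC45A3, the transporter-like protein prostein, was at 11.1 FPKM in siE2F1, against 6.79 and 6.76 FPKM in the controls, which nearly coincided (log2 fold change 0.64, standard error 0.06, limma adjusted p = 0.111 and 0.0353). STEAP1 was 0.42 higher on the log2 scale (standard error 0.09, limma adjusted p = 0.139 and 0.0608), just outside the threshold, while STEAP2 differed by 0.17 (limma adjusted p = 0.244 and 0.197). TMPRSS2, a transmembrane serine protease, was at 14.6 FPKM in siE2F1, against 20.5 and 19.5 FPKM in the controls. It was the only gene of the list that passed in the lower direction without small RNA genes (-0.42, standard error 0.07, limma adjusted p = 0.117 and 0.0498), again at the edge. The drug and nucleotide exporter ABCC4 was at 6.49 FPKM in siE2F1 and 5.92 and 5.58 FPKM in the controls. The potassium channel KCNN2 was at 4.33 FPKM in siE2F1 and 3.90 and 3.75 FPKM in the controls. For both, siE2F1 was above both controls by amounts that did not pass under either fit.

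Genes of signalling, lipid activation and stress gave mixed values. C1orf116, a cytoplasmic protein described as a specifically androgen-regulated gene, was at 44.4 FPKM in siE2F1, against 28.2 and 26.4 FPKM in the controls (log2 fold change 0.68, standard error 0.08, limma adjusted p = 0.111 and 0.0358). CAMKK2, a kinase that activates AMPK, was at 19.0 FPKM in siE2F1, against 14.3 and 13.8 FPKM in the controls (0.41, standard error 0.06, limma adjusted p = 0.114 and 0.0494). Of the genes with a promoter shown above, ACPP, PLA2G2A and CAMKK2 were higher in siE2F1 than in both controls by at least 0.3 log2 units, but they were picked for display partly because they were higher. Of the 4 genes with the androgen response hexamer, PMEPA1 and TRPM8 were below both controls and PLA2G2A and KLK3 above. PMEPA1, TRPM8 and KLK3 were under 1 FPKM and not tested. Each differed from the nearer control by less than the controls differed from each other. NDRG1, a stress-responsive gene linked to differentiation, was at 27.8 FPKM in siE2F1 and 23.7 and 27.6 FPKM in the controls, so it differed from control 0 but hardly from control 1. ACSL3, which activates long-chain fatty acids, was at 34.6 FPKM in siE2F1 and 35.3 and 35.0 FPKM in the controls. The ubiquitin ligase HERC3 was at 9.67 FPKM in siE2F1 and 9.31 and 9.35 FPKM in the controls. APPBP2, which binds the amyloid precursor protein, was at 10.2 FPKM in siE2F1, against 12.2 and 11.8 FPKM in the controls (-0.21, limma adjusted p = 0.174 and 0.141).

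ELL2, EAF2, FKBP5, SGK1 and TSC22D3 showed no common direction. Of the list members tested that are shared with the glucocorticoid receptor, FKBP5 and SGK1 were below both controls and TSC22D3 was above. ELL2, an RNA polymerase II elongation factor, was at 4.04 FPKM in siE2F1 and 4.46 and 4.52 FPKM in the controls, whereas its binding partner EAF2 was at 3.31 FPKM in siE2F1 and 2.90 and 2.96 FPKM in the controls. FKBP5, a cochaperone of steroid receptors, was at 14.3 FPKM in siE2F1 and 15.8 and 14.9 FPKM in the controls. The kinase SGK1 was at 1.07 FPKM in siE2F1 and 1.34 and 1.22 FPKM in the controls. TSC22D3, a leucine zipper protein induced by glucocorticoids, was in contrast at 25.8 FPKM in siE2F1, against 18.7 and 20.9 FPKM in the controls (0.37, standard error 0.10, limma adjusted p = 0.163 and 0.0865). Its excess over control 0 was 0.44 and over control 1 was 0.29, with the controls 0.15 apart. None of these 5 genes passed under either fit.

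**Figure D3:**
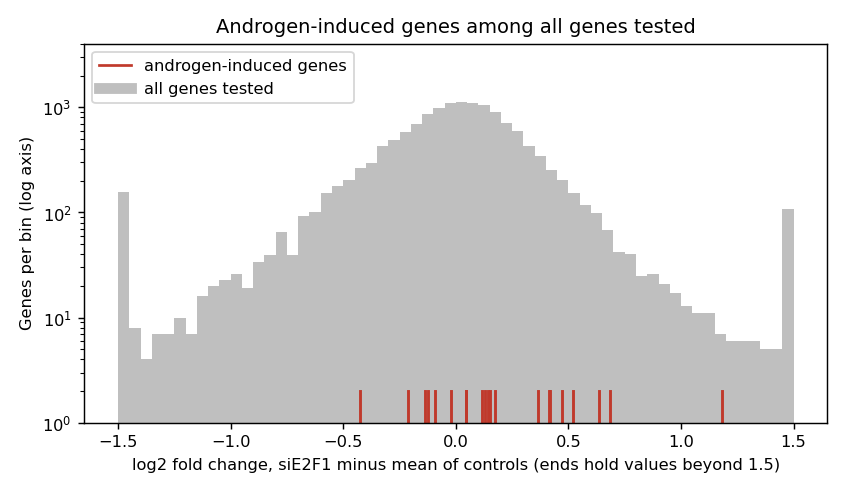
Log2 fold changes of the 21 androgen-induced genes (red ticks) over the histogram of all 14401 genes tested (grey, log count axis; the end bins collect values beyond 1.5). The ticks run from TMPRSS2 at -0.42 to ACPP at 1.18, with more of them to the right of 0 than to the left.

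Cofactors of steroid signalling had no shared direction. Of 23 such genes (pioneer factors, coactivators, corepressors and chaperones), all tested, 12 were above both controls (52.2%, against 43.7% of all genes tested) and 6 below (26.1%, against 39.7%). Their median log2 fold change was 0.06 and their median difference between the controls -0.09. None passed in the fit of all genes, and without small RNA genes 1 passed higher and 2 lower, together 13% of the list against 10.5% of all genes, a share near the background. GATA2, a factor that binds closed chromatin, was at 54.9 FPKM in siE2F1, against 87.0 and 76.3 FPKM in the controls (-0.56, limma adjusted p = 0.132 and 0.0509). FKBP4, an HSP90 cochaperone of steroid receptors, was at 57.8 FPKM in siE2F1, against 85.7 and 83.7 FPKM in the controls (-0.54, limma adjusted p = 0.111 and 0.0368). STUB1, a chaperone-linked ubiquitin ligase, had a log2 fold change of -0.48 (limma adjusted p = 0.126 and 0.0498) and PIAS1, a SUMO ligase, of 0.49 (limma adjusted p = 0.111 and 0.0402).

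Of 5 steroid receptor genes listed (NR3C1, NR3C2, PGR, ESR1 and ESR2), NR3C1 and PGR reached a mean of 1 FPKM. NR3C1, the glucocorticoid receptor, was at 1.06 FPKM in siE2F1, against 1.66 and 1.81 FPKM in the controls (-0.41, limma adjusted p = 0.14 and 0.0843). PGR, the progesterone receptor, was at 2.40 FPKM in siE2F1, against 1.18 and 1.22 FPKM in the controls (0.63, limma adjusted p = 0.111 and 0.0419). Of 10 tested genes shared with the glucocorticoid receptor, which include FKBP5, SGK1 and TSC22D3, 8 were below both controls (80%, against 39.7% of all genes tested) and 2 above (20%, against 43.7%). Their median was -0.13, with no call under either fit. The metallothionein MT2A was the furthest, at 148 FPKM in siE2F1 against 198 and 223 FPKM in the controls (-0.50, limma adjusted p = 0.138 and 0.0561).

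A further list of 54 androgen-induced genes outside the 31, of which 46 were tested, had a smaller median, a difference that was not tested. In it 24 genes were above both controls (52.2%, against 43.7% of all genes tested) and 17 below (37%, against 39.7%), with a median of 0.04. None passed in the fit of all genes, and without small RNA genes 5 passed higher (10.9%, against 4.17% of all) and 1 lower (2.17%, against 6.36%). INPP4B, a phosphoinositide phosphatase, was at 2.88 FPKM in siE2F1, against 0.704 and 0.921 FPKM in the controls (1.10, limma adjusted p = 0.111 and 0.035). DNAJB9, a chaperone of the endoplasmic reticulum, had a log2 fold change of 0.67 (limma adjusted p = 0.111 and 0.0351) and SPDEF, an epithelial ETS factor, of 0.62 (limma adjusted p = 0.112 and 0.039). CENPN, a centromere protein, was lower (-0.57, limma adjusted p = 0.111 and 0.0365).

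The M-phase genes UBE2C, CDC20 and CDK1, known as targets of androgen signalling in LNCaP-abl, were all below both controls (100%, against 39.7% of all genes tested). None passed in the fit of all genes, and all 3 passed lower without small RNA genes (100%, against 6.36% of all). UBE2C, which hands ubiquitin to mitotic substrates, was at 36.5 FPKM in siE2F1, against 56.7 and 55.4 FPKM in the controls (-0.60, limma adjusted p = 0.111 and 0.036). CDC20, an activator of the anaphase-promoting complex, was at 30.5 FPKM in siE2F1, against 59.4 and 56.8 FPKM in the controls (-0.91, limma adjusted p = 0.111 and 0.0272). CDK1, the mitotic kinase, was at 58.8 FPKM in siE2F1, against 86.2 and 89.7 FPKM in the controls (-0.57, limma adjusted p = 0.111 and 0.0366). All 3 are also cell division genes, so a difference tied to androgen signalling and a difference tied to the cell cycle cannot be told apart in these values.

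**Figure D4:**
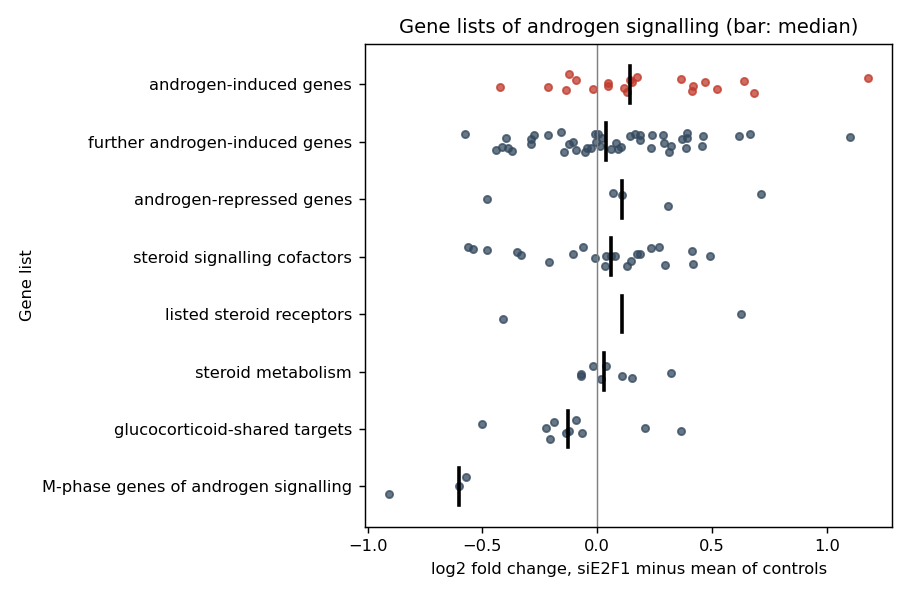
Log2 fold change of every tested gene in 8 lists of androgen signalling (points; vertical position within a list is random), with the median of each list as a bar. The median was 0.14 for the androgen-induced genes, 0.04 for the further androgen-induced genes and -0.60 for the 3 M-phase genes.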

How the data were processed

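RNA was measured by sequencing in 3 libraries, 1 siE2F1 and 2 control, grouped and numbered by their titles. Per the submitters' processing notes, TopHat2 2.0.4, Cufflinks 2.0.2 and the build hg19 were used; parameters and annotation are not given in the sources used here. What the authors deposited is log2 FPKM with a lowest value of log2 of 0.1, so FPKM was computed as 2 to that value minus 0.1, which assumes that the authors added 0.1. Sorted deposited values differ by at most 0.0653 log2 units between libraries, as quantile normalization gives, so a shift shared by most genes cannot be seen. Depth is unknown and no counting interval can be given.

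Genes whose FPKM averaged at least 1 over the libraries were tested on log2(FPKM + 1) in R 4.3.3 with limma 3.58.1. The settings were a mean-variance trend, two-sided p and Benjamini-Hochberg over all genes tested at 0.05. A check on simulated data left out small RNA genes and drew siE2F1 with the spread of the controls, so it tests neither choice. Every gene of the list is named, with full values for those at least 0.3 log2 units beyond both controls or called in either fit. From the other lists NR3C1 and up to 4 tested genes with the largest change are named, fewer where none was called. Some list members are not reported here, and were left out of the list counts. The genes and lists were chosen with earlier results of these data known. Promoter letters were searched in RefSeq windows of GRCh38.p14; these coordinates were not joined to the hg19 values.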

Additional observations from a re-analysis of the deposited data

How the results depend on the processing

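No paired analysis was possible because there was only 1 siE2F1 library, which also carries no replicate number of its own. The 21 tested genes kept their direction of change under every setting in which they were measured, except FOLH1, whose difference was 0 with control 0 left out. The number of these genes called by limma was 0 under every setting that gives a test except without small RNA genes, where it was 7. Over all genes, limma called 18 with a pseudocount of 0.1, 0 with no filter on mean FPKM and 1467 without small RNA genes, in place of 60. With no filter, 4862 of 21691 genes had an unadjusted p under 0.05, among them 9 of the 27 list genes. Without small RNA genes 4658 of 13928 did, against 4087 of 14401 in the main fit, with 10 of the 21 list genes in each. The prior degrees of freedom, limma's weight on the spread pooled over genes, were 3.19 without small RNA genes and 1.69 in the main fit. The E2F1 call was lost with a pseudocount of 0.1 (log2 fold change -2.59, adjusted p = 0.0601) and with no filter (-2.12, adjusted p = 0.159), and its limma adjusted p ranged from 0.0106 to 0.159. Doubling the threshold of 10 FPKM left 8 genes above it in both controls, in place of 13. The median log2 fold change of the list was 0.14 to 0.17 with a control left out, values with no test. The adjusted p of ACPP ranged from 0.0221 to 0.188 over the settings, and that of KLK4 from 0.0498 to 0.193. With no replicate of siE2F1 and no read counts, differences in the 7 genes under 1 FPKM, such as KLK2 and KLK3, could not be assessed.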

Other observations

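Genes of steroid metabolism and androgen-repressed genes belonged to no comparison above. Of 8 tested genes of steroid synthesis and breakdown 5 were above both controls (62.5%, against 43.7% of all genes tested) and 2 below (25%, against 39.7%), with a median log2 fold change of 0.03 and no call under either fit. HSD17B4, a peroxisomal enzyme that also oxidises steroids, was at 93.9 FPKM in siE2F1, against 76.8 and 73.3 FPKM in the controls (0.32, limma adjusted p = 0.139 and 0.0737). AKR1C3, which makes testosterone, was at 0.65 FPKM in siE2F1 and 0.44 and 0.425 FPKM in the controls. HSD3B1 was at 0.152 FPKM in siE2F1 and 0.0577 and 0.109 FPKM in the controls. Both are named after their values were seen. The other genes of this list found under 1 FPKM, AKR1C1, AKR1C2 and HSD17B6, were below both controls. No gene under 1 FPKM was tested.

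Of 13 genes that androgen represses, 5 were tested, and 4 of them were above both controls (80%, against 43.7% of all genes tested) and 1 below (20%, against 39.7%), with a median of 0.11. None passed in the main fit. With small RNA genes left out, CCNG2 passed higher (20%, against 4.17% of all) and OPRK1 lower (20%, against 6.36%), each share being 1 gene of 5. Adjusted p-values are given for both fits, in that order. DDC, dopa decarboxylase, was at 277 FPKM in siE2F1, against 217 and 231 FPKM in the controls (0.31, limma adjusted p = 0.157 and 0.0839), and the cyclin CCNG2 at 44.8 FPKM in siE2F1, against 25.1 and 29.0 FPKM in the controls (0.71, limma adjusted p = 0.119 and 0.0403). OPRK1, the kappa opioid receptor, was at 48.7 FPKM in siE2F1, against 70.7 and 66.0 FPKM in the controls (-0.48, limma adjusted p = 0.118 and 0.045). Androgen-induced and androgen-repressed genes thus both had a median above 0, with too few repressed genes tested to set the lists apart.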
